A study of Bos taurus with 16 samples.

Results

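Interferon response genes were followed here through bovine endometrium on day 0 and day 7 and through day 7 blastocysts. They were chosen by name: every probe set of the bovine array whose annotation gave 1 gene symbol, and whose symbol began with IFI, OAS or GBP, with IRF, STAT or TRIM and a digit, or was 1 of a short list of antiviral genes such as MX1, ISG15 and RSAD2. This gave 81 probe sets for 59 genes, out of 24016 probe sets and 9155 singly named genes in all. By role they were 28 probe sets of effectors and sensors (20 genes), 19 of transcription factors (11 genes), 6 of guanylate-binding proteins (3 genes) and 28 of tripartite motif proteins (25 genes).

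Interferons are secreted proteins that cells release on sensing viral nucleic acid. Type I interferons, to which interferon tau of the ruminant embryo belongs, bind the receptor pair IFNAR1 and IFNAR2, and the kinases JAK1 and TYK2 on that receptor phosphorylate STAT2. It joins IRF9, enters the nucleus and switches on interferon-stimulated genes, whose products block viral replication, process antigen or feed back on the signal. In cattle, interferon tau from the trophectoderm is the signal by which the uterus recognises pregnancy, and endometrial ISG15 and MX1 are well-known targets of it. The name rule also takes in genes that answer other signals: STAT3 and STAT6 mainly serve interleukins and related cytokines, and many TRIM genes, most of them ubiquitin ligases, are not induced by interferon.

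Endometrial cells had been taken with a cytobrush from superovulated cows, 49 in the series, 2 h before insemination (day 0) and again just before the uterus was flushed for embryos (day 7). A sample with a polymorphonuclear cell (PMN) value of 0 was healthy endometrium (HE), and one with a higher value was subclinical endometritis (SE). RNA was pooled by the status found on each day, so the groups were HE day 0 (3 pools), SE day 0 (3), HE day 7 (2), SE day 7 (3), HE blastocysts (2) and SE blastocysts (3), the blastocysts being grouped by their donors' status at flushing with 10 embryos to a pool. Which cows entered which pool is not given, so a day contrast compares pools rather than paired animals, and p-values measure the spread between pools. All groups shared superovulation and 2 rounds of amplification from 15 ng of RNA, and the cell that a transcript came from is not known from a brush: fewer cells of a type and less RNA per cell cannot be told apart.

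Values are the deposited GCRMA signals on the log2 scale, where 1 unit is a doubling. A probe set was tested when it exceeded 4 on at least 2 arrays of the tissue, and "called" means a Benjamini-Hochberg adjusted p under 0.05 in limma's moderated test over every probe set kept. Differences are group means subtracted, with the standard error (SE of the fit, always written after ±). Endometrium kept 12 of its 13 epithelial markers on the array, and blastocysts 5 of their 6 trophectoderm markers. Between 12303 and 12471 probe sets per endometrial array exceeded 4, and between 10823 and 10877 per blastocyst array. The SE day 0 replicate 2 array stood apart, with a mean correlation of 0.961 with the other day 0 arrays against 0.975 to 0.979 for the rest. The 3' minus 5' signal of the GAPDH control ran from 0.03 to 0.58 in endometrium and from 4.97 to 5.84 in blastocysts. In endometrium that of actin ran from -0.5 to -0.3, of cyclophilin from 0.6 to 1.2 and of EIF4E from 3.7 to 4.5. In blastocysts these ran from 3.6 to 4.7, from 4.9 to 5.2 and from 10.7 to 11.2. The part of these signals in the results was not tested.

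Of the members, 50 probe sets for 43 genes passed the filter in endometrium (61.7%, against 55.9% of all probe sets) and 28 for 24 genes in blastocysts (34.6% against 45.9%). In 23 genes both tissues passed, and in 15 neither did. Of the effectors 14 of 28 probe sets passed in endometrium, for 12 of 20 genes. Among those that did not, MX2, RSAD2, OAS1X, OASL, IFIT2 and IFI44L had no other probe set, and all 4 probe sets of IFI44 failed. RSAD2 (viperin, an antiviral radical enzyme) exceeded 4 in 1 array, SE day 0 replicate 1, at 4.32 against 2.65 and 2.67 in the other SE pools and 2.60 to 2.65 in HE. IFI44 did so once, at 4.18 in HE day 7 replicate 1 on 1 of its probe sets. Of 33 names listed for description, 12 had no singly annotated probe set and were not analysed here, among them ISG20, BST2, ADAR, IFIT1, IFIT3, IFITM3, IFIH1, OAS1Y, OAS2, IRF1 and GBP2.

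Between day 0 and day 7 the interferon effectors that changed fell more often than they rose, and IRF7 and GBP4 rose, in HE and in SE pools. In HE, 12 of the 50 tested probe sets rose and 15 fell, where 21.8% of all 13421 tested rose, 23.2% fell and 45.0% were called either way. In SE, 11 rose and 17 fell, against 26.0%, 24.1% and 50.1%. The members' shares called, 54.0% and 56.0%, were thus close to the array as a whole, and so were the medians of their changes (-0.19 against -0.03 for all probe sets in HE, -0.11 against 0.01 in SE). In both HE and SE, 8 members rose and 12 fell, which is 20 of 50 tested, where 38.6% of all probe sets were called the same way in both. They made up 74.1% of the members' HE calls and 71.4% of their SE calls, against 85.8% and 77.0% over all probe sets. No member was called in opposite directions, and over all 13421 probe sets 1 was. These contrasts share no array, but both use the same estimate of spread, from 1 fit of all endometrium arrays.

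The tests involve a filter that TRIM45, TRIM47 and TRIM36 passed only through their day 7 arrays: their day 0 values all lay at or under 4, so a rise was built into their being tested. The SE day 0 values of IRF2 lay under 4 as well. Without those whose day 0 values were all at or under 4, 9 members rose in HE and 9 in SE. The count of falls in HE dropped to 8 without HE day 7 replicate 2, where the day 7 mean rests on 1 pool assumed to vary like the others.

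**Figure D1:**
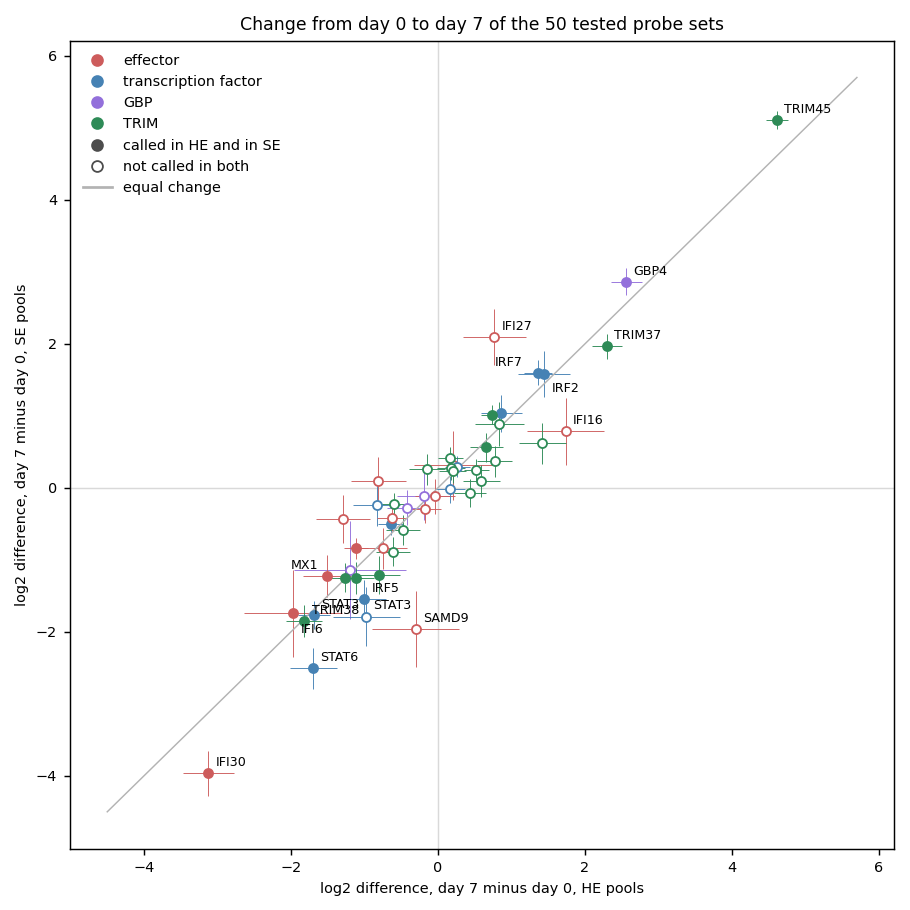
Change from day 0 to day 7 on the log2 scale in HE pools (horizontal) and SE pools (vertical) for the 50 tested probe sets, with bars of 1 standard error and colours for the 4 roles. Filled points were called in both; TRIM45, whose day 0 values all lay under the filter, and GBP4 lie at the upper right, IFI30 at the lower left, and IFI27, IFI16 and SAMD9 lie off the line of equal change.

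Among the 14 tested effector probe sets, 1 rose and 6 fell in HE, and 1 rose and 6 fell in SE, with medians of -0.69 and -0.43. Thus 7 of the 14 were called in each status, where 45.0% and 50.1% of all probe sets were. The HE falls count USP18 on both of its tested probe sets. Of the effector calls in each status, 57.1% were the same way in both, against 85.8% and 77.0% over all probe sets. The 4 effectors that fell in both were IFI30, IFI6, MX1 and IFI35. IFI30, the lysosomal thiol reductase that unfolds antigens, read 10.79, 11.08 and 10.22 in the HE day 0 pools and 7.96 and 7.18 on day 7. In SE pools it went from 11.25, 11.04 and 10.66 to 7.14, 7.40 and 6.50. It fell by 3.12 ± 0.35 in HE (adjusted p = 6.89e-05 by limma) and fell by 3.97 ± 0.31 in SE (adjusted p = 4.99e-06), 8.71-fold and 15.6-fold on the linear scale. Day 0 and day 7 pools did not overlap, and the fall was the deepest of all tested members in each status.

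MX1, a dynamin-like GTPase that traps viral particles, stood at 7.92, 8.53 and 8.29 in HE day 0 pools and at 6.68 and 6.80 on day 7. SE pools read 8.21, 8.56 and 7.99, then 7.31, 7.46 and 6.32. The fall was 1.51 on the log2 scale in HE (limma adjusted p = 0.0043) and 1.23 in SE (adjusted p = 0.00613), again with no overlap between days. IFI35, a partner of the STAT-binding protein NMI, fell by 1.12 in HE and by 0.84 in SE, from 8.44 to 8.89 over all day 0 pools to 7.61 to 7.87 over all day 7 pools.

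IFI6, a small mitochondrial survival protein, was high and even on day 0, at 10.72, 10.98 and 10.76 in HE and 10.59, 10.86 and 10.72 in SE. On day 7 it was 8.89 and 8.80 in HE, but 10.49, 9.14 and 7.31 in SE, the widest spread of any SE day 7 effector. It fell by 1.97 ± 0.67 in HE (limma adjusted p = 0.0354) and by 1.74 ± 0.60 in SE (adjusted p = 0.0335). Neither call was firm. With no filter the adjusted p was 0.0999 in HE and 0.0954 in SE. Leaving out any 1 of the 5 HE pools gave 0.0677 to 0.131 in HE, and leaving out SE day 0 replicates 1, 2 or 3 or SE day 7 replicate 2 gave 0.0635 to 0.0752 in SE.

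USP18, which strips ISG15 from proteins and dampens the receptor, has 2 tested probe sets, and both fell in HE, by 1.30 (adjusted p = 0.0162) and by 0.63 (adjusted p = 0.0337). The first of these read 5.76, 5.34 and 5.69 on day 0 and 4.30 and 4.29 on day 7, and it was not called without HE day 7 replicate 1 (adjusted p = 0.0677) or replicate 2 (adjusted p = 0.0738). In SE the differences were -0.44 and -0.42 and neither was called. The other 2 USP18 probe sets did not pass the filter.

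SAMD9, an antiproliferative antiviral factor, fell in SE by 1.96 ± 0.53 (limma adjusted p = 0.0112), from 6.35, 7.75 and 5.43 to 5.09, 4.87 and 3.68. In HE it read 4.78, 5.19 and 5.13 and then 4.66 and 4.80, a difference of -0.30 that was not called. EIF2AK2, the RNA-activated kinase PKR, fell in SE by 0.84 (adjusted p = 0.0324) on 1 probe set; its other probe set differed by 0.09 in SE, and neither was called in HE, at -0.74 and -0.81.

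IFI16 and IFI27 were the effectors that rose, each in 1 status. IFI16, a nuclear DNA sensor, went from 4.22, 4.97 and 5.50 to 6.36 and 6.91 in HE, a rise of 1.74 ± 0.52 (limma adjusted p = 0.021) that was not called with no filter (adjusted p = 0.0627), without HE day 0 replicate 1 (0.0687) or without HE day 7 replicate 2 (0.132). In SE it went from 5.69, 6.11 and 5.75 to 7.57, 6.76 and 5.58 (0.79, not called). IFI27, a mitochondrial protein strongly induced by type I interferon, rose in SE by 2.10 ± 0.39 (adjusted p = 0.00137), from 3.91, 3.84 and 4.09 to 6.47, 6.56 and 5.12. HE pools read 4.07, 3.69 and 4.27, then 4.24 and 5.31, a difference of 0.77 that was not called. None of these status-specific calls is shown to differ between HE and SE: the interaction was 1.33 for IFI27, -0.95 for IFI16, -1.66 for SAMD9, 0.86 and 0.21 for the USP18 probe sets and -0.09 for the called EIF2AK2 probe set, all with adjusted p = 1.0.

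ISG15, the ubiquitin-like modifier, IFITM1, a membrane protein that blocks viral entry, and IFIT5, which binds viral RNA ends, were called in neither status. Their differences were 0.20, -0.04 and -0.18 in HE and 0.32, -0.11 and -0.29 in SE.

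**Figure D2:**
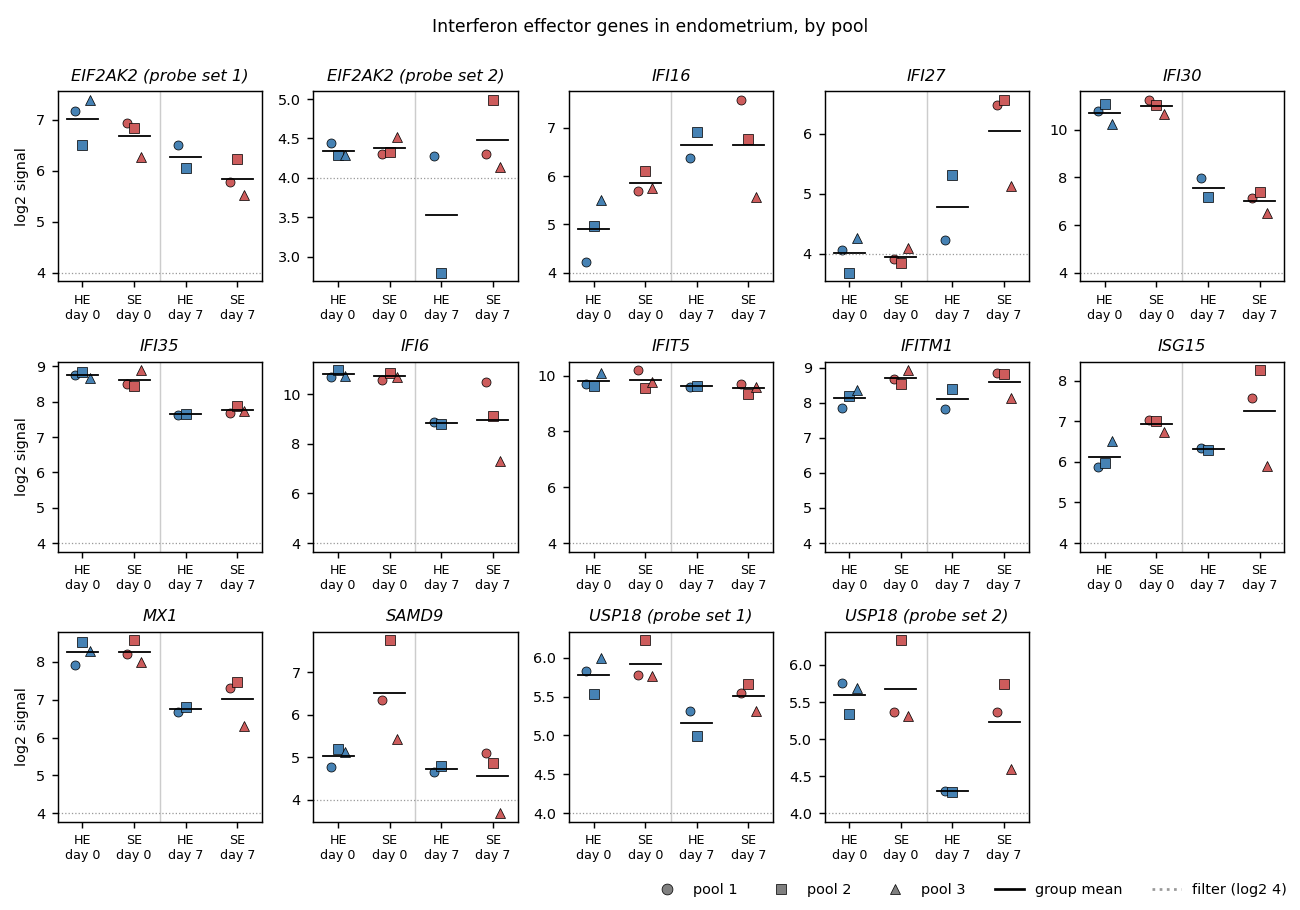
Log2 signal of the 14 tested effector probe sets in each endometrial pool (blue HE, red SE; circle, square and triangle for replicates 1 to 3; black line, group mean; dotted line, the filter at 4), each panel with its own vertical axis. IFI30, IFI35 and MX1 separate day 0 from day 7 in all pools, and SE day 7 replicate 3 (triangle) is the lowest SE day 7 pool in 12 of the panels.

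Transcription factors split by gene. Among 11 tested probe sets, 3 rose and 4 fell in HE, and 3 rose and 5 fell in SE. That is 63.6% and 72.7% called, against 45.0% and 50.1% of all probe sets. The 7 called in HE were all called the same way in SE. IRF7, the factor that amplifies type I interferon production, rose on both tested probe sets. The brighter read 6.18, 6.35 and 6.56 in HE on day 0 and 7.51 and 7.94 on day 7, and 6.36, 6.48 and 6.49 then 7.94, 8.31 and 7.87 in SE. It rose by 1.36 ± 0.19 in HE (limma adjusted p = 0.000333) and by 1.60 ± 0.17 in SE (adjusted p = 4.25e-05). The dimmer rose by 0.86 in HE (adjusted p = 0.0301) and by 1.03 in SE (adjusted p = 0.00655). Its HE call was lost with no filter (adjusted p = 0.066) and without HE day 0 replicate 1 (0.071), 2 (0.0636) or 3 (0.0597) or HE day 7 replicate 2 (0.199).

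IRF2, a repressor that competes with IRF1, rose by 1.44 in HE (adjusted p = 0.00822), where 1 of 3 day 0 pools exceeded the filter (3.77, 4.46 and 3.48, then 5.40 and 5.29). In SE its day 0 values were all under the filter, at 3.88, 3.64 and 3.19, and its day 7 mean lay 1.16 above it. STAT6, which carries interleukin 4 signals, fell by 1.70 ± 0.32 in HE (limma adjusted p = 0.0019) and by 2.51 ± 0.29 in SE (adjusted p = 6.01e-05). It read 7.60, 7.59 and 7.54 in HE and 7.77, 8.12 and 7.77 in SE on day 0, then 6.10 and 5.67 in HE and 5.65, 5.87 and 4.62 in SE.

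STAT3, the main carrier of interleukin 6 family signals, fell on the brighter probe set by 1.69 in HE (adjusted p = 0.000177) and by 1.76 in SE (adjusted p = 4.85e-05), from 9.81 to 10.38 in all day 0 pools to 8.09 to 8.67 in all day 7 pools. The dimmer probe set fell by 1.79 in SE (adjusted p = 0.00443) and was not called in HE (-0.97, adjusted p = 0.107), where HE day 0 replicate 1 read 4.82 and the other HE day 0 pools 6.60 and 6.47.

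IRF5, active in macrophages, fell by 1.01 in HE (adjusted p = 0.0184) and by 1.55 in SE (adjusted p = 0.00079), and IRF3, the factor first activated by nucleic acid sensors, fell by 0.64 and by 0.50. The partners of the interferon-activated complex were not called: STAT2 differed by 0.27 and 0.29 and IRF9 by -0.83 and -0.24. IRF8, a myeloid factor, differed by 0.17 and -0.02.

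GBP4 rose the most after TRIM45 in each status. GBP proteins are interferon gamma-induced GTPases that attack intracellular pathogens. GBP4 read 9.43, 9.11 and 9.04 in HE and 9.01, 8.40 and 8.65 in SE on day 0, and then 11.64 and 11.87 in HE and 11.40, 11.50 and 11.74 in SE. It rose by 2.56 ± 0.21 in HE (limma adjusted p = 9.24e-06) and by 2.86 ± 0.19 in SE (adjusted p = 1.63e-06), 5.91-fold and 7.27-fold. GBP1, which has 4 protein-coding genes between it and GBP4 on chromosome 3 in the RefSeq table, read 7.33, 9.27 and 8.93 and then 7.28 and 7.35 in HE, and 8.45, 8.21 and 7.03 and then 7.91, 6.99 and 5.36 in SE (-1.20 and -1.14, not called). GBP5, next to GBP1, was not called on either tested probe set, at -0.42 and -0.19 in HE and -0.28 and -0.11 in SE.

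**Figure D3:**
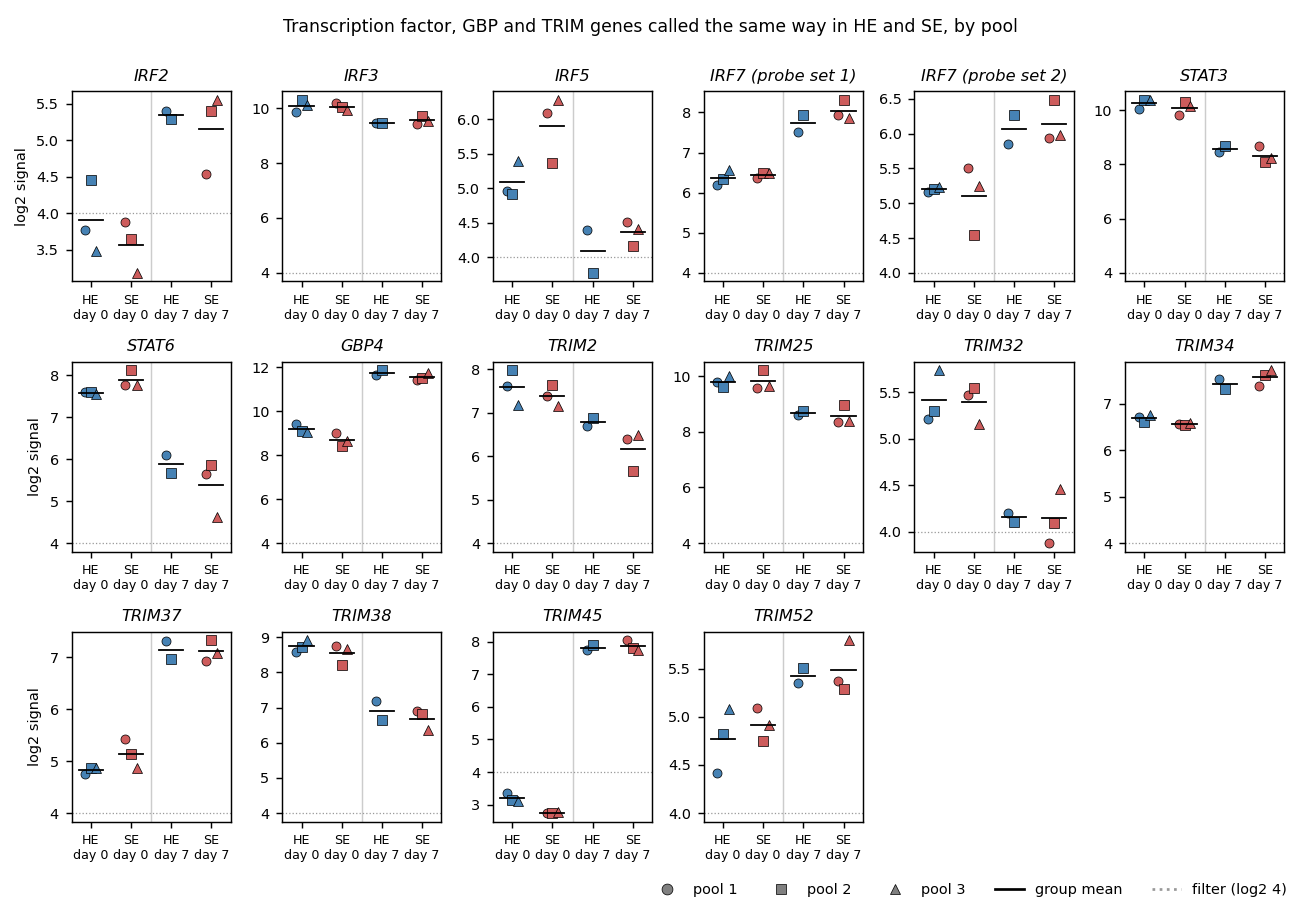
Log2 signal by pool for the 16 transcription factor, GBP and TRIM probe sets called the same way in HE and SE between day 0 and day 7 (symbols and dotted line as for the effectors; each panel has its own axis). TRIM45 moves from values under the filter on day 0 to 7.75 to 8.04 on day 7; day 0 and day 7 pools do not overlap within a status in these panels.

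Of the 21 tested TRIM probe sets, 7 rose and 5 fell in HE, and 6 rose and 6 fell in SE, with 4 rising and 4 falling in both. The share called was 57.1% in each status, against 45.0% and 50.1% of all probe sets. TRIM45, a ubiquitin ligase known as a repressor of MAP kinase signalling, was under the filter in every day 0 pool. It read 3.35, 3.15 and 3.12 in HE and 2.74, 2.75 and 2.78 in SE on day 0, and then 7.75 and 7.89 in HE and 8.04, 7.80 and 7.75 in SE. The day 7 mean lay 3.82 above the filter in HE and 3.86 above it in SE. The fitted differences, 4.61 in HE and 5.11 in SE, rest on day 0 values under the filter and are given as a description. TRIM37, a ubiquitin ligase of centrosomes and peroxisomes, rose by 2.30 in HE (adjusted p = 1.35e-05) and by 1.96 in SE (adjusted p = 1.29e-05), from 4.75 to 5.43 on day 0 to 6.93 to 7.32 on day 7 over all pools.

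TRIM38, which curbs inflammatory signalling, fell by 1.82 in HE and by 1.85 in SE, from 8.21 to 8.90 over the day 0 pools to 6.35 to 7.20. TRIM32 fell by 1.26 and by 1.25. TRIM25, the ligase that activates the RNA sensor RIG-I, fell by 1.11 (adjusted p = 0.00461) and by 1.25 (adjusted p = 0.001), from 9.57 to 10.21 on day 0 to 8.36 to 8.96 on day 7. Both tested TRIM2 probe sets had negative differences in both statuses; the dimmer fell in HE and SE, and the brighter fell in SE and missed the threshold in HE (-0.61, adjusted p = 0.0518).

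TRIM34, TRIM5 and TRIM6 lie close together on chromosome 15 in the RefSeq table, with 1 protein-coding gene between each and the next. TRIM34 rose by 0.73 in HE (adjusted p = 0.00281) and by 1.01 in SE (adjusted p = 0.000146). TRIM5, a restriction factor that binds retroviral capsids, rose in SE by 0.89 (adjusted p = 0.0317) and missed the threshold in HE (0.84, adjusted p = 0.067). Its SE call was lost with no filter (0.0776), with array weights (0.0873), on the arrays of the contrast alone (0.0869) and without SE day 0 replicate 2 (0.0638) or 3 (0.111) or SE day 7 replicate 1 (0.0901). TRIM6 was at 1.66 to 1.72 in every endometrial pool.

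TRIM52 rose by 0.65 in HE and by 0.56 in SE, the latter a call at adjusted p = 0.0394 that gave 0.0501 to 0.143 in the 10 alternatives that ended it, among them leaving out SE day 0 replicate 2 or 3, SE day 7 replicate 1 or 3, HE day 0 replicate 2 or either HE day 7 pool. TRIM41 rose in HE by 0.77 (adjusted p = 0.0227), and TRIM13 fell in HE by 0.60. TRIM47 and TRIM36, also called in HE, had day 0 values all under the filter and HE day 7 means 0.64 and 0.12 above it. TRIM41 was not called without HE day 0 replicate 2 (0.0618) or 3 (0.0671) or HE day 7 replicate 1 (0.161). TRIM68 rose by 0.41 and TRIM27 fell by 0.59 in SE. TRIM21, TRIM28, TRIM11 and both TRIM8 probe sets were called in neither status.

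Other genes of the pathway were read against the same background of 45.0% of all probe sets called in HE and 50.1% in SE. In these lists, and in the cell type markers, each gene was represented by its tested probe set of highest mean. Their shares therefore count genes, while the background counts probe sets. Of 15 listed ligands, 4 had a singly annotated probe set (IFNT2, IFNAC, IFNB1 and IFNG), and the others were not analysed here. None of these 4 passed the filter in endometrium. IFNG stayed between 2.63 and 2.81, IFNB1 between 2.10 and 2.18 and IFNT2 between 1.53 and 1.58. Of the 5 tested receptors and kinases, 4 fell in each status. IFNAR1 read 5.46, 5.31 and 6.31 in HE and 6.10, 4.61 and 5.15 in SE on day 0, and 4.46 and 4.67 in HE and 4.20, 4.57 and 4.06 in SE on day 7. It fell by 1.13 in HE (limma adjusted p = 0.0482) and by 1.01 in SE (adjusted p = 0.0431). Both calls lie close to the threshold, and the alternative fits were summarized for members only, not for this gene. IFNAR2 went from 8.69, 8.56 and 8.65 to 6.88 and 6.54 in HE and from 8.41, 8.29 and 8.29 to 6.96, 6.32 and 6.62 in SE, a fall by 1.92 (adjusted p = 3.32e-05) and by 1.70 (adjusted p = 2.68e-05). IFNGR2 and JAK1 fell in both as well.

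Of 5 tested sensing and induction genes, 4 rose in HE and 3 in SE, among them the adaptors MAVS (1.39 and 1.51) and MYD88 (0.84 and 1.04) and the RIG-I-like receptor DHX58 (1.39 and 1.07). Of 6 tested negative regulators, 2 rose in HE and 3 in SE, PIAS1 by 1.01 and by 1.04. Among 24 other interferon-stimulated genes, 3 rose and 5 fell in HE and 4 rose and 6 fell in SE, which is 33.3% and 41.7% called, below those shares, with CASP4 falling by 3.20 and by 2.99 and TDRD7 rising by 1.44 and by 1.40. Among 11 genes of interferon-inducible antigen processing, 3 rose and 3 fell in HE and 4 rose and 2 fell in SE; the peptide transporter subunits TAP1 (1.61 and 1.06) and TAP2 (1.10 and 0.95) rose while the loading factor TAPBP fell by 1.07 and by 1.46. In the receptor and kinase list all 5 differences were negative in both statuses; the fifth gene, IL10RB, was not called.

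Cell type markers differed between the days too. The mean of 12 tested epithelial markers was 11.01 to 11.50 over the day 0 pools and 9.92 to 10.29 over the day 7 pools. Of these 12, 6 fell and 2 rose in HE, and 9 fell and 2 rose in SE. For 10 T and NK cell markers the mean was 5.43 to 6.24 on day 0 and 5.81 to 7.21 on day 7. Here 4 rose and 1 fell in HE, and 6 rose and 1 fell in SE. The 9 macrophage and dendritic markers ran from 5.26 to 5.92 and then from 5.55 to 6.72, and the 5 neutrophil markers from 8.13 to 12.47 and then from 6.91 to 9.18. KRT8, CD4, NKG7, GZMB, PRF1, MSR1, CD86, MMP9, FCGR3A, ITGAM, PGLYRP1 and IL1R2, also on these lists, did not pass the filter. The part of these shifts in the members' changes was not tested.

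SE and HE endometrium on day 0 did not differ in any member by the test. None of the 50 probe sets was called, and 0.0224% of all probe sets were called, 3 of 13421. An unadjusted limma p under 0.05 was found for 6 of the 50 and for 1020 of all 13421. The members' median difference, SE minus HE, was 0.01 against -0.06 for all probe sets. In 6 members every SE pool was above every HE pool, where 3.58% of all probe sets were, and in 3 every SE pool was below, where 9.24% were; 4 of the 6 were effectors. Among the 14 effectors 10 differences were positive, with a median of 0.06.

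SAMD9 had the largest difference, at 1.48 ± 0.53 (limma adjusted p = 0.608), with HE pools at 4.78, 5.19 and 5.13 and SE pools at 6.35, 7.75 and 5.43. It was 0.85 without SE replicate 2, the array that stood apart. IFI16 differed by 0.95 (HE 4.22, 4.97 and 5.50; SE 5.69, 6.11 and 5.75), ISG15 by 0.81 (HE 5.88, 5.97 and 6.51; SE 7.04, 7.01 and 6.74) and IFITM1 by 0.58 (HE 7.87, 8.20 and 8.37; SE 8.69, 8.54 and 8.93). In each of these 4 the SE pools lay above the HE pools, with adjusted p from 0.608 to 0.732. MX1 and IFI6, targets of the same pathway, differed by 0.01 and -0.09.

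Outside the effectors, IRF5 had the smallest p of the positive differences, at 0.82 (HE 4.97, 4.92 and 5.39; SE 6.09, 5.36 and 6.28; limma adjusted p = 0.606), and its groups overlapped. A GBP5 probe set differed by 0.57 and STAT6 by 0.31, both without overlap. The negative differences of smallest p were TRIM45 (-0.45, between values all under the filter), GBP4 (-0.51), TRIM68 (-0.27), IRF9 (-0.35) and an EIF2AK2 probe set (-0.34), with adjusted p from 0.583 to 0.81. Beside these values, the mean of the 9 macrophage and dendritic markers was 5.26 to 5.47 in HE pools and 5.83 to 5.92 in SE pools, and that of the 5 neutrophil markers 8.13 to 10.46 and 10.33 to 12.47. The SE pools also lay above the HE pools in the mean of 2 plasmacytoid dendritic markers (5.15 to 5.52 and 5.73 to 6.07), in that of 3 ciliated epithelial markers (5.85 to 6.63 and 6.96 to 8.30) and in JCHAIN (8.71 to 9.84 and 10.94 to 11.91). No marker on these lists was called. Their part in the differences was not tested.

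On day 7, status again gave no call among the 50 members (4 had an unadjusted limma p under 0.05) and none over all probe sets (0.0%; 477 of them had an unadjusted p under 0.05). The median difference was -0.02 over the members and 0.00 over all. Every SE pool lay above both HE pools in 6 members and below them in 3, against 7.93% and 8.33% of all probe sets. What marked day 7 was the spread among SE pools. In 12 of the 14 effector probe sets replicate 3 was the lowest SE pool. It was lowest in 44.0% of the 50 members and in 25.6% of all tested probe sets. In 10 of the 14 (71.4%), replicates 1 and 2 both lay above both HE pools, which held for 12.1% of all tested probe sets. Replicate 3 and this pair of pools were singled out after their values were seen, so these shares are a description and not a test.

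ISG15 shows this: HE pools read 6.36 and 6.29, and SE pools 7.58, 8.26 and 5.89. The difference was 0.92 ± 0.54 (limma adjusted p = 1.0) and became 1.60 without SE replicate 3 and 0.41 without SE replicate 2. MX1 differed by 0.29 and by 0.64 without replicate 3, and IFI6 by 0.13 and by 0.97. The median over the 14 effectors was 0.21 with all pools, 0.59 without replicate 3 and 0.08 without replicate 2. IFI27 had the smallest p of the members, at 1.27 ± 0.43 (adjusted p = 1.0), with HE pools at 4.24 and 5.31 and SE pools at 6.47, 6.56 and 5.12.

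USP18 differed by 0.94 and 0.35 on its tested probe sets, a GBP5 probe set by 0.71, IFITM1 by 0.50 and an EIF2AK2 probe set by 0.95, the last resting on HE values of 4.27 and 2.79. The negative differences of smallest p were TRIM2 (-0.61), TRIM36 (-0.31), TRIM47 (-0.52), IFI30 (-0.56) and STAT6 (-0.50), with adjusted p = 1.0 in each. With any 1 pool left out, the smallest adjusted p of an effector was 0.314, for ISG15. Markers of immune cells differed among the SE pools as well. The 10 T and NK cell markers averaged 7.21, 6.92 and 5.81 in SE replicates 1, 2 and 3 and 6.31 and 6.80 in HE, and the 9 macrophage and dendritic markers 6.72, 6.12 and 5.55 and 5.85 and 6.21. JCHAIN, a plasma cell gene, stood at 9.92 and 10.78 in HE and, for SE replicates 1, 2 and 3, at 12.09, 10.97 and 7.65. The 10 stromal markers averaged 9.18, 8.50 and 7.55 in SE and 7.55 and 9.10 in HE. The 12 epithelial markers averaged 9.99, 9.92 and 9.98 in SE and 10.29 and 10.26 in HE, and all 12 of their differences were negative with no call. The part of these markers in the effector values was not tested.

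The change of the status difference from day 0 to day 7 (the interaction) was called for no member and for 0.0% of all probe sets, where 2 members and 526 of all probe sets had an unadjusted limma p under 0.05. The largest of the members were -1.66 for SAMD9, 1.33 for IFI27 and 0.95 or less in size for the rest, with adjusted p = 1.0 for each.

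**Figure D4:**
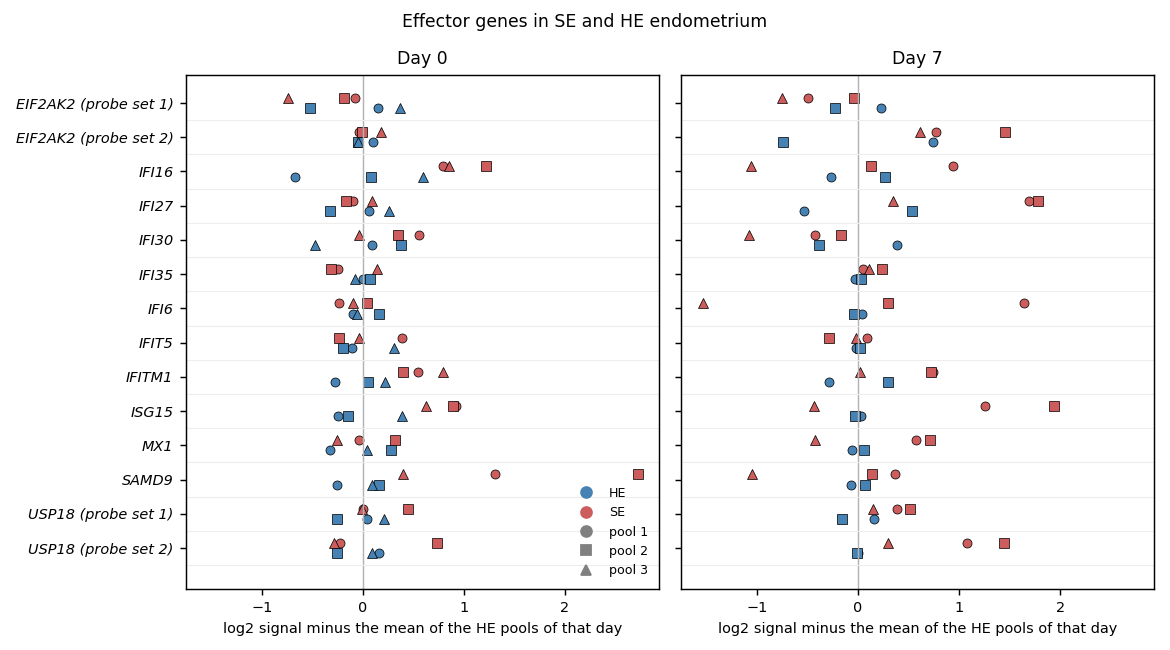
Log2 signal of each HE (blue) and SE (red) pool minus the mean of the HE pools of that day, for the 14 tested effector probe sets on day 0 and day 7. On day 0 the SE pools of IFI16, IFITM1, ISG15 and SAMD9 lie to the right of all HE pools; on day 7 SE replicate 3 (triangle) lies to the left of the other SE pools in 12 of the 14.

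In blastocysts the ligand IFNT2 passed the filter, and few of the effectors did. A probe set that failed the filter does not show that its transcript was absent. IFNT2, an interferon tau gene, read 10.46 and 9.36 in HE pools and 10.76, 8.79 and 8.95 in SE pools, and did not differ by the test (-0.41, limma adjusted p = 0.848). IFNAR2 was at the arrays' lowest value of 2.20 in all 5 pools, IFNAR1 at 2.20 to 2.39 and IFNGR2 at 2.26 to 2.39. Of the 81 member probe sets 23 (28.4%) sat at exactly that lowest value on every array, against 24.8% of all probe sets. Among them or near it were MX1, MX2, IFI6, IFI27, RSAD2 and SAMD9, all at 2.20, and ISG15, IRF9, IFIT5 and STAT6, at 2.20 to 2.60. TRIM25 was at 2.20 in every blastocyst pool, and TRIM45 too. Levels were not compared with endometrium, since it is not known whether the tissues were normalized together.

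The 28 that passed were 3 effectors (IFI30, IFI35 and IFITM1), 8 transcription factor probe sets, 2 GBP and 15 TRIM. TRIM6, at 9.29 to 9.91, was the gene that passed in blastocysts alone. TRIM34, its neighbour, read 5.14 in HE replicate 2 and 2.34 to 2.37 in the other pools. STAT3 was at 8.01 to 9.84 on its first probe set, GBP4 at 9.07 to 10.76, TRIM2 at 11.45 to 11.78 and TRIM32 at 10.68 to 11.52.

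By donor status no blastocyst member was called (2 had an unadjusted limma p under 0.05), nor was any probe set of the array (0.0% of 11014; 1029 of them had an unadjusted p under 0.05). Positive differences, SE minus HE, numbered 19 of 28, and the median was 0.21 against 0.01 for all. Every SE pool was above both HE pools in 7 members and below in 2, against 12.4% and 12.6% of all probe sets. STAT3 read 8.01 and 8.28 in HE and 9.03, 9.84 and 9.26 in SE on its first probe set (1.24 ± 0.29, limma adjusted p = 0.403), and 8.52 and 9.38 against 9.18, 9.85 and 10.37 on its second (0.85, adjusted p = 0.603).

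IRF7 ran the other way, at 6.46 and 6.31 in HE and 5.89, 5.82 and 5.89 in SE (-0.52 ± 0.12, limma adjusted p = 0.403). STAT2 read 5.29 and 4.14 and then 5.93, 5.40 and 5.91 (1.03), IFI30 5.39 and 3.54 and then 7.25, 5.55 and 5.55 (1.65), and a TRIM8 probe set 9.35 to 10.16 and 10.23 to 10.71 (0.75). In these 3 the SE pools lay above the HE pools, and HE replicate 2 was the lowest pool of the 5. TRIM68 (-0.84), TRIM11 (-0.18), TRIM13 (-0.48) and TRIM32 (-0.35) had the negative differences of smallest p after IRF7, with adjusted p from 0.597 to 0.657. With 2 pools against 3, these values do not show that the groups are alike: leaving out 1 pool moved the difference of IFI30 between 0.72 and 2.58 and that of STAT2 between 0.45 and 1.60.

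**Figure D5:**
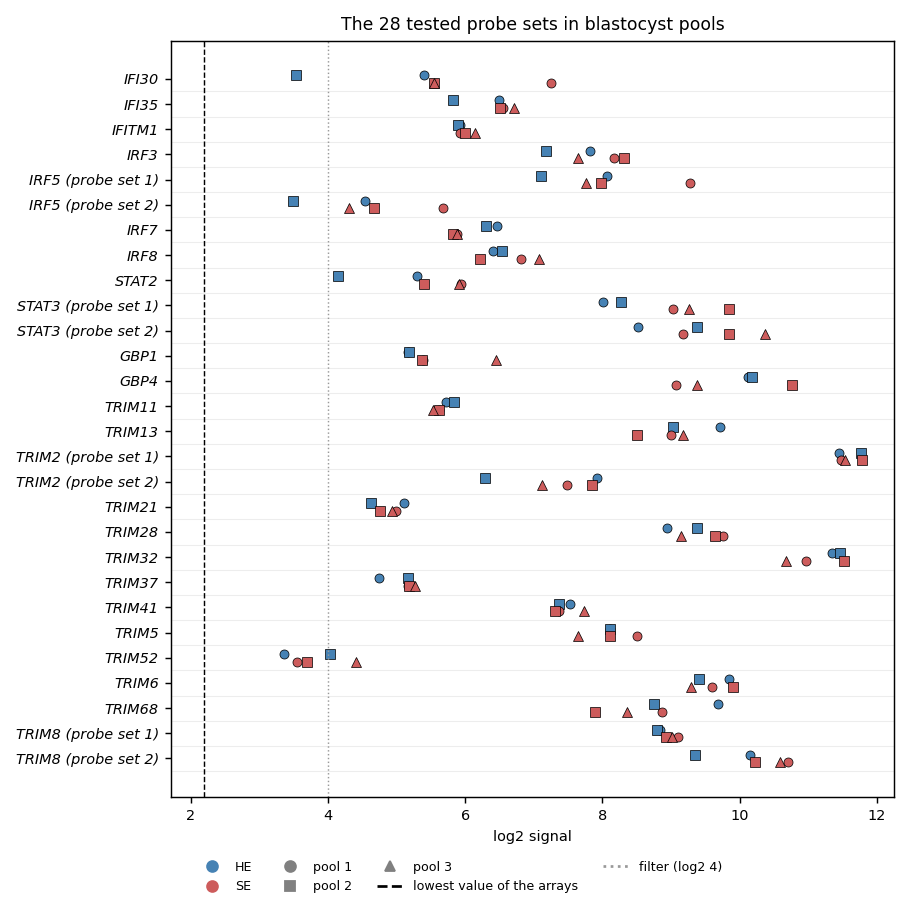
Log2 signal of the 28 tested probe sets in each HE (blue) and SE (red) blastocyst pool, in the order effectors, transcription factors, GBP and TRIM, with the arrays' lowest value (dashed) and the filter (dotted). Positions are to be compared along a row; STAT3 on its first probe set and STAT2 have all SE pools to the right of the HE pools, and IRF7 has them to the left.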

How the data were processed

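RNA of 16 pools was measured on Affymetrix bovine arrays. The authors deposited GCRMA signals on the log2 scale for 24128 probe sets; the submitters' processing notes name GCRMA and limma without version, role or order, and the scans were not used here. Tests did not use the array's 112 controls. All 81 member probe sets matched a RefSeq gene by number with the same symbol; 1 further probe set with several symbols was left out. The RefSeq table served for names and neighbours only. Promoters were not analysed here.

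limma 3.58.1 in R 4.3.3 (group means, empirical Bayes, two-sided) was fitted to the 11 endometrium arrays and, apart, to the 5 blastocyst arrays, over all probe sets above 4 on at least 2 arrays, and tested on simulated data. Plots used matplotlib 3.10.9. The number of arrays limits precision. Named were, per contrast, at most 10 called rises and 10 called falls of largest size, or, under 5 calls, the members of smallest p up to 5; other values complete the account of the list. Members and gene lists were chosen with earlier results of these data known. Replicate numbers were not taken as pairs in the main fit. Deviations of same-numbered endometrium pools from their group means correlated between -0.27 and 0.24. With so few pools to a group these deviations are tied to each other, so they cannot exclude a pairing. Alternatives were the filter, quantile normalization, gene means, array weights, an intensity trend, the contrast's arrays alone, a replicate block and leaving out each pool.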

Additional observations from a re-analysis of the deposited data

How the results depend on the processing

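Of 80 named differences of members, 72 kept their direction and side of the threshold under all alternatives run. The other 8 lost their call under at least 1 (44 of 1444 values), and 0 changed sign. All 8 were day 7 against day 0 differences. The named status, interaction and blastocyst differences had no call to lose. Their part of the 72 and of the 1444 values says nothing on how firm a call is. Counts of called members for day 7 against day 0 ran, with 1 pool left out, from 8 to 13 rises and 8 to 16 falls in HE and from 8 to 11 rises and 13 to 17 falls in SE; the low of 8 falls came without HE day 7 replicate 2. With a replicate block, the limma fit gave 8 rises and 15 falls in HE and 10 and 15 in SE. Calls for IFI16 (adjusted p = 0.054), the dimmer IRF7 probe set (0.0673) and TRIM41 (0.0549) in HE were lost. A block by the pool number of the blastocyst titles, and leave-one-out values of the effectors, were added after seeing the data; the former gave 0 called members, as did every alternative for the status contrasts. Values near 4 on this scale, and blastocyst values at the arrays' lowest value, carry no order.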
